A study of Mus musculus with 4 samples.

Results

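Complement is a cascade of blood and tissue proteins that marks cells and debris for removal. In the classical pathway C1q, built from the chains encoded by C1qa, C1qb and C1qc, binds its target and leads to cleavage of C4 and then of C3. Factor B, encoded by Cfb, joins cleaved C3 in the alternative pathway, the small fragments of C3 and C5 act on the receptors C3ar1 and C5ar1, and Serping1 inhibits the C1 proteases. In fat, factor D (adipsin) is a well-known adipocyte product, whereas C1q chains and the fragment receptors are typical of macrophages.

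These 9 complement genes were read by 12 of the 22626 probe sets on 4 Affymetrix arrays, among 13108 genes that could be named. A probe set is a group of probes that reads a transcript, and its value is an intensity on a linear scale. Members were found by symbol or, for the 4 probe sets that carried an older symbol (C1qg, C4, H2-Bf and C5r1), by gene ID. No measured value was used in this matching, but the 9 genes were chosen with earlier results of these data known.

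RNA from mouse cells and tissue was hybridised to 1 array in each of 4 groups. Adipocytes grown in primary culture from visceral fat were given DMSO (vehicle) or 10 µM forskolin, an activator of adenylyl cyclase, and were taken after 2 h. Epididymal white fat pads came from control mice on normal chow and from mice fed a 60% high fat diet over 12 weeks. The sources used here do not give the strain, the age or how many mice or cultures lie behind each array, and the column headings of the fat arrays call the mice WT. A difference here is between 1 array and 1 other, so it has no replicate check and no test, and the small number of arrays sets the precision. Counts of members past 2-fold are therefore set beside the share of all compared genes past 2-fold.

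The labelled material was checked against markers. Of 8 adipocyte markers on the array, none was at or below the floor on any array, and Adipoq, the adiponectin gene, read 10261 with vehicle, 10449 with forskolin, 10456 in chow fat and 9962 in high fat tissue. Other markers of the list were less even. Lipe read 607 with vehicle and 4349 in chow fat, Pparg 709 and 3335, and Cidec 2672 and 7844. Lep (1419 and 808) and Retn (10716 and 10055) were higher with vehicle. The floor is each array's 10th percentile, between 22.1 and 26.0, and values at or below it were set to it before taking log2. On both adipocyte arrays 3 of 12 macrophage markers lay at or below the floor (Cd163, Fcgr1 and Tyrobp), while Csf1r, the receptor of a macrophage growth factor, read 3293 with vehicle. In the chow fat none of the listed macrophage, fibroblast, mesothelial or endothelial markers with a value was at or below the floor. Most probe sets lie above such a floor, and all 7 liver and all 7 neutrophil markers in chow fat did too. Passing it therefore does not show which cells were present.

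Promoter sequence was available for 5 of the 9 members and is shown for 4 of them. These are the C1q chains that had a sequence (C1qb and C1qc) and the genes with the highest and the lowest diet difference. Each line gives the 250 bases before the annotated start site from RefSeq, build GRCm38.p6, written 5′ to 3′ along the gene. Capitals mark matches on either strand to GAGGAA (core of PU.1 sites, a myeloid factor), TTNNGNAA (a C/EBP pattern) and TGACG (short form of the cAMP response element, the site of CREB).
C5ar1, chr7:16259339-16259588, minus strand: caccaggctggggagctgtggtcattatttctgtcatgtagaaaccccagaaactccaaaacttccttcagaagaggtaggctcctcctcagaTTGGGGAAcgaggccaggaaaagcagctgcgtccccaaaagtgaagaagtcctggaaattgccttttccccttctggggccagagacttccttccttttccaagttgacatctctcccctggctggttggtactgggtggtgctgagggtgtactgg
C3, chr17:57228137-57228386, minus strand: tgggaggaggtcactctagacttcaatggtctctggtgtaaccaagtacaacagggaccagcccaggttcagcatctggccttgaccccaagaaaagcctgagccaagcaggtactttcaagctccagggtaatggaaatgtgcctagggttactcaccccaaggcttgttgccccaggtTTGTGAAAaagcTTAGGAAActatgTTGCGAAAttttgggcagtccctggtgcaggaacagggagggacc
C1qc, chr4:136892915-136893164, minus strand: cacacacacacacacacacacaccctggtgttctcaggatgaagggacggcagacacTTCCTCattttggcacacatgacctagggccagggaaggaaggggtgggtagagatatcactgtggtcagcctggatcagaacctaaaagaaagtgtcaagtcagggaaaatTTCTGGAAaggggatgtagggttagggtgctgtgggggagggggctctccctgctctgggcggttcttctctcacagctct
C1qb, chr4:136886201-136886450, minus strand: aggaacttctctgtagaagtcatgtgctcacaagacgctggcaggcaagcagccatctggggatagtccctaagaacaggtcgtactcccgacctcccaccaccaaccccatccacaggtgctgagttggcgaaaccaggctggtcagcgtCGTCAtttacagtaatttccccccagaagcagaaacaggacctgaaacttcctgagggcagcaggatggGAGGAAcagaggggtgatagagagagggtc

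The C3 window held 3 matches to the C/EBP pattern, beginning 70, 58 and 45 bases before the start site. Of 32851 promoter windows of the same length, 36.8% held at least 1 such match and 2.61% held 3 or more. C5ar1 had 1 match, 157 bases before its start, and C1qc had 1 at 81 bases. GAGGAA was found once in C1qb (30 bases before the start) and once in C1qc (193 bases), and in 23.3% of all windows. No match to it was found in the C3, C3ar1 or C5ar1 windows. The full cAMP response element TGACGTCA was in none of the 5 windows and in 1.55% of all, and the short form TGACG was in C1qb alone and in 17.8% of all. TTCNNNGAA, the pattern of interferon-activated GAS sites, was in none of the 5 and in 7.02% of all. In the authors' deposited table, all 12 probe sets of the members carry the class "others" for a predicted CRE. These matches describe letters in the window and say nothing of binding.

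The first question was how complement transcripts differ in fat after long high fat feeding. All 7 members that could be compared had a higher intensity on the high fat diet than on chow. The differences went from 1.85-fold for C3 to 34.8-fold for the C5a receptor gene C5ar1, with a median of 3.20-fold, or 1.68 on the log2 scale. Of the 7, 5 were at least 2-fold higher and 0 were at least 2-fold lower, where the shares over 12264 compared genes were 12.8% in the upper and 7.84% in the lower direction. The median difference of all compared genes was 0.06 on the log2 scale. In whole tissue, more cells of a type and more RNA per cell cannot be told apart.

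**Figure D1:**
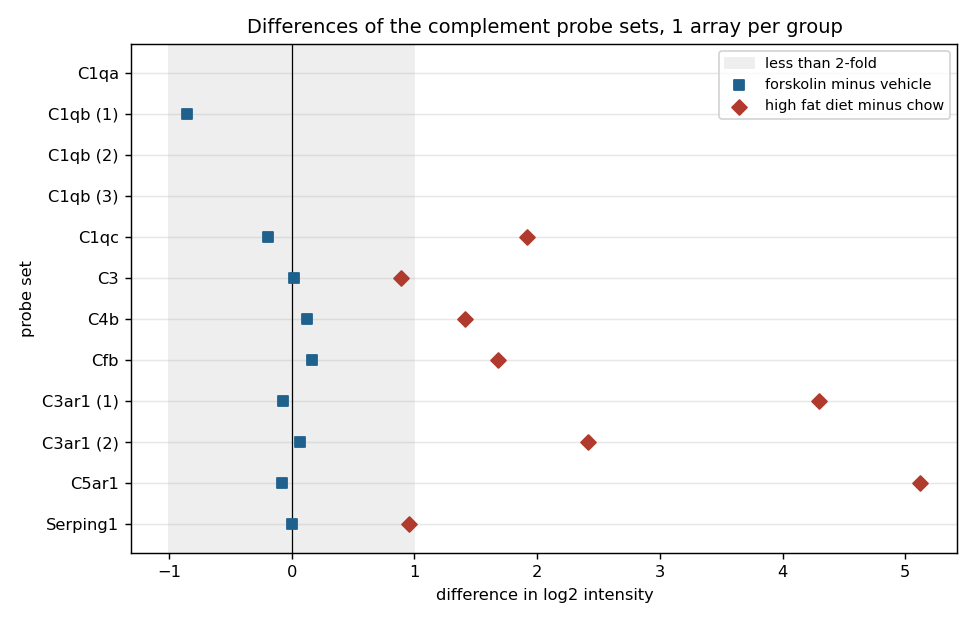
Difference in log2 intensity for each complement probe set, with squares for forskolin minus vehicle and diamonds for high fat diet minus chow, 1 array per group; the grey band spans less than 2-fold. Diet differences run from 0.89 for C3 to 5.12 for C5ar1, while the forskolin squares lie within the band. Rows without a mark had empty cells or were at the floor on both arrays.

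The fragment receptors had the highest diet differences. C5ar1, which binds the C5 fragment C5a, read 56.4 on chow and 1959 after high fat feeding. The chow value lay close to the floor of 25.1 on that array, so the fold rests on a dim reading, and in the authors' deposited table its bounds were 21.9 and 83.6. C3ar1, which binds the C3 fragment C3a, has 2 probe sets that gave unlike folds. By the probe set that was brighter on average, it read 591 in chow fat and 3149 in high fat tissue, which is 5.33-fold higher. By the dimmer one it read 175 and 3447, which is 19.7-fold higher. Both probe sets were thus higher on the high fat diet, and they were 3.70-fold apart in the size of the difference. Among 4674 genes with several compared probe sets, 10.4% had a gap at least that wide, and the median gap was 0.70 on the log2 scale against 1.89 for C3ar1.

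Among the C1q chains, which start the classical pathway, only C1qc could be compared. It read 2649 on chow and 10009.9 in high fat tissue, 3.78-fold higher. The high fat value stood near the top of that array, whose highest intensity was 13228. C1qa, the A chain, had an empty cell on both fat arrays. C1qb, the B chain, had 3 probe sets and a value for 1 of them on the high fat array alone, at 6411. In all, 7 of the 48 cells of the members were empty, each of them a C1qa or C1qb cell on a fat array, against 0.685% of all 90504 cells. The sources used here do not say why cells are empty, so no diet difference can be given for C1qa or C1qb.

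The components that carry the cascade forward were also higher. C4b, the C4 protein cleaved by the C1 proteases, read 2921 on chow against 7792 after high fat feeding, a 2.67-fold difference. Its probe set may also read C4a, a near-identical copy that has no probe set of its own under that name. Cfb read 865 and 2767, a 3.20-fold difference. C3, on which all pathways converge, read 5887 and 10911, 1.85-fold higher, and its high fat value too lay near the top of the array. Serping1, the C1 inhibitor, read 3747 and 7278, 1.94-fold higher. C3 and Serping1 thus missed the 2-fold mark. In the authors' deposited table their bounds were 1.7 and 2.03 for C3, and 1.76 and 2.15 for Serping1.

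**Figure D2:**
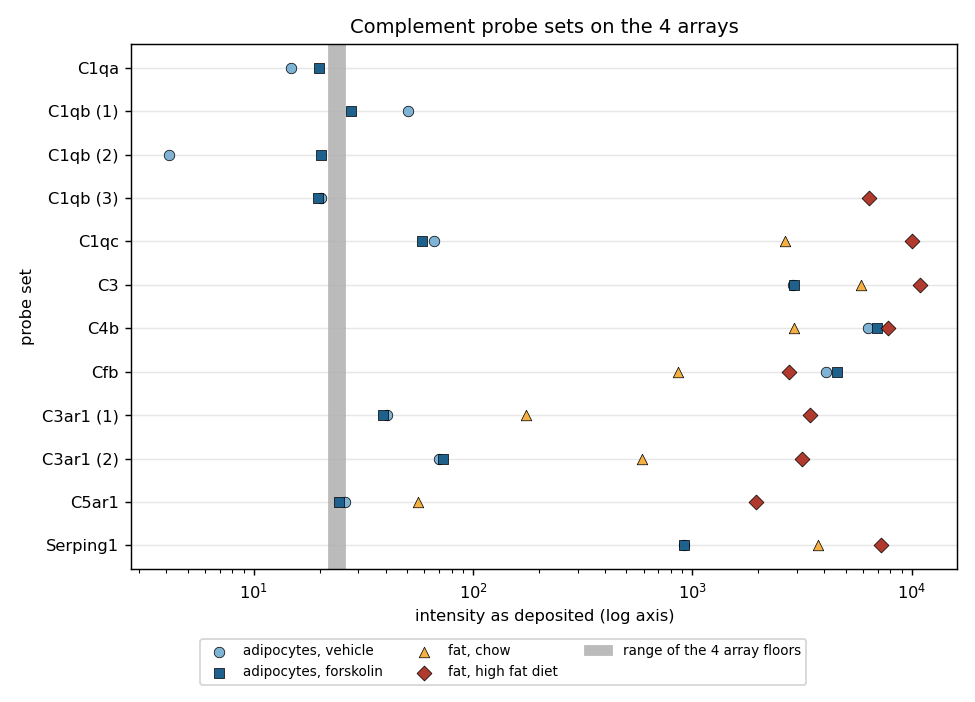
Deposited intensity (log axis) of each of the 12 complement probe sets on the 4 arrays, 1 mark per array; the grey band spans the array floors. C5ar1, both C3ar1 probe sets and C1qc are bright on the high fat array and near or within 4-fold of the floor in adipocytes, whereas C3, C4b, Cfb and Serping1 read about 865 or more on every array.

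The background of all genes was wide for the diet. Of the compared genes 58.5% lay within 1.5-fold in the deposited scaling, and none of the 7 members did. The balance of higher and lower genes moved with the scaling between arrays. Higher genes made up 62.1% of all genes past 2-fold as deposited, and 44.7% after quantile normalization or after setting all array medians equal. The 7 members were higher under each of those scalings, and 5 of them stayed at least 2-fold higher. After quantile normalization C3 came within 1.5-fold, at 1.47-fold higher.

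**Figure D3:**
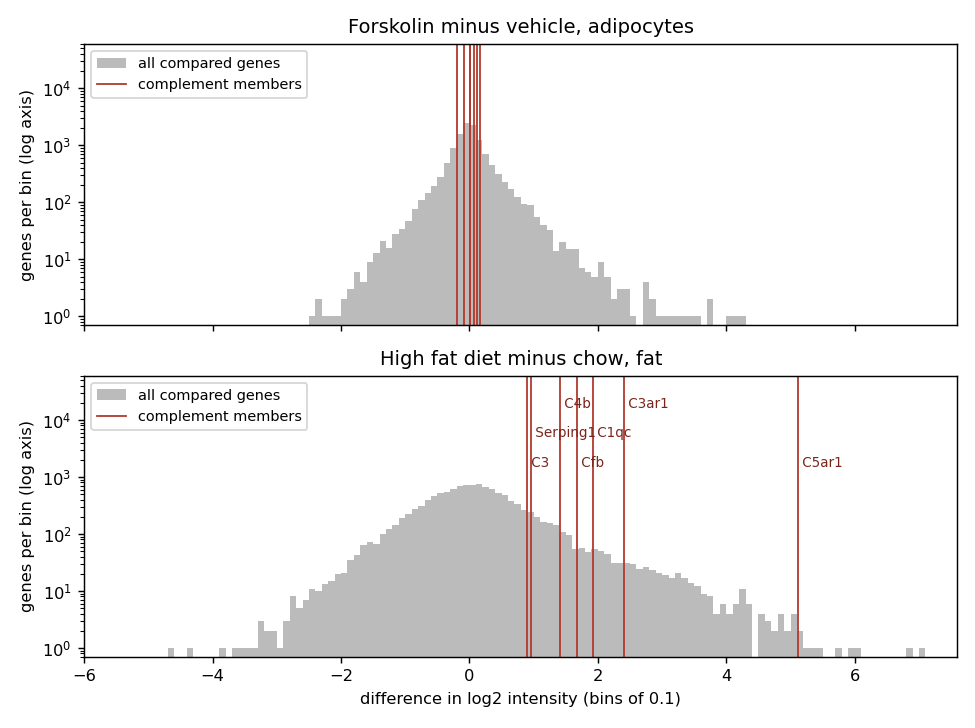
Number of genes (log axis) by difference in log2 intensity, in bins of 0.1, for forskolin minus vehicle (top) and high fat diet minus chow (bottom), with a line for each complement member. In the forskolin panel the 7 members lie between -0.19 and 0.17; in the diet panel the 7 lie between 0.89 and 5.12, on the side of the higher genes.

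Markers of several cell types differed along with the members between the fat arrays. Of 12 listed macrophage markers 10 were compared and all 10 were higher on the high fat diet, from 1.61-fold to 10.4-fold, with a median of 4.36-fold. Their summed intensity was 18627 in chow fat and 72171 in high fat tissue. The defining markers Adgre1, Cd68 and Mrc1 read 989, 813 and 1711 on chow and 6562, 8473 and 5249.9 on the high fat diet, and Cd163 was empty on both. The part of macrophage number in the complement differences was not tested.

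The other marker lists differed less than the macrophage list or in the opposite direction at their medians. All 8 fibroblast markers were higher, with a median of 1.59-fold and 2 past 2-fold, and their sum went from 33383 to 45501. Fibroblasts are another known source of C3, C4b and Serping1. All 5 mesothelial markers were lower, at a median of 2.47-fold, and 3 of 6 endothelial markers were lower. The 8 adipocyte markers had a median difference of -0.09 on the log2 scale. Of these, 1 was at least 2-fold higher (Lep, 6.83-fold) and 1 at least 2-fold lower (Retn, 3.48-fold). Of 7 liver markers, included because the liver makes most plasma complement, 4 passed 2-fold downward and 1 upward, and their sum went from 1532 to 419. The neutrophil median was -0.09 over 6 genes, with 1 at least 2-fold higher. All 4 B cell markers were higher, with a summed intensity of 335 and 1170.0. These were dim readings, with Cd79b at 27.9 on chow, near the floor. In its brighter reading, no B cell marker reached the median level of compared genes, against 1 each of the mesothelial, liver and neutrophil lists. The part of any cell type of these lists in the complement differences was not tested.

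**Figure D4:**
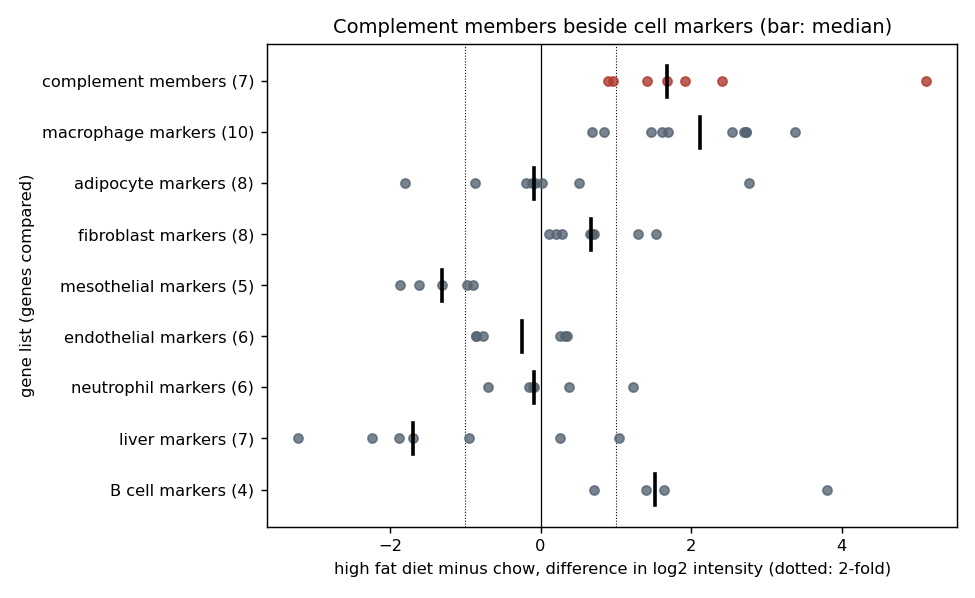
High fat diet minus chow difference in log2 intensity for each compared gene of the complement members and of 8 marker lists, with the number compared in brackets and the median as a black bar. Complement members (median 1.68) lie on the same side of 0 as macrophage (2.12), fibroblast (0.67) and B cell (1.52) markers, and mesothelial (-1.30) and liver (-1.69) medians lie on the other side.

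The second question was whether cAMP signalling alters complement transcripts in the adipocyte cultures. No member reached 2-fold with forskolin, where the shares over 12368 compared genes were 2.04% in the upper and 1.15% in the lower direction. All 7 compared members lay within 1.5-fold, as did 89.4% of all compared genes. C1qa and C1qb were not compared, because the probe set standing for each was at the floor on both arrays.

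Cfb had the highest of these small differences, with 4083 on vehicle and 4585 on forskolin, 1.12-fold higher. C4b read 6359 and 6918, 1.09-fold higher. C3 read 2869.9 and 2901, a 1.01-fold difference, and Serping1 read 915 and 919, a log2 difference of 0.01. These 4 genes were well above the floor in the cultures. In the authors' deposited table the lower and upper bounds were 1.06 and 1.19 for Cfb, and 0.89 and 1.15 for C3.

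The other members were dim in the cultures. C1qc read 66.7 with vehicle and 58.5 with forskolin, and C5ar1 25.9 and 24.5, near the floors of 22.1 and 22.2. C3ar1 read 69.9 and 73.2 by its brighter probe set and 40.7 and 38.7 by the other. C1qa read 14.85 and 19.8, below the floor. For C1qb, 1 of 3 probe sets was above the floor, at 50.5 with vehicle and 27.9 with forskolin, 1.81-fold lower. At these levels a difference of that size rests on dim readings.

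Set side by side over the 4 arrays, the members fell into a few orders. For C1qc, C3, both probe sets of C3ar1, C5ar1 and Serping1, the high fat array was highest, chow came next and both adipocyte arrays were lowest. C1qc was 39.7-fold higher in chow fat than in vehicle adipocytes, C3ar1 8.46-fold by its brighter probe set and 4.30-fold by the other, Serping1 4.09-fold, C5ar1 2.17-fold and C3 2.05-fold. C4b and Cfb had chow fat as their lowest array. C4b was 2.18-fold and Cfb 4.72-fold higher in vehicle adipocytes than in chow fat. On the high fat diet C4b read above both adipocyte arrays, whereas Cfb remained below both.

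Over the 7 members, 5 were at least 2-fold higher in chow fat and 2 at least 2-fold higher in vehicle adipocytes. Of these, C3 (2.05-fold), C5ar1 (2.17-fold) and C4b (2.18-fold, higher in adipocytes) lay close to the mark. The vehicle reading of C5ar1 was dim, at 25.9. This count was taken in the deposited scaling alone. Among 12436 genes, 17.8% passed 2-fold in favour of chow fat and 12.8% in favour of vehicle adipocytes. The cultures and the tissues come from separate experiments, so source and experiment cannot be told apart. The median intensity was 236 on the vehicle array and 266 on the chow array.

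Genes with the most similar profile were found by the distance between log2 levels over the 4 arrays, each profile centred on its own mean, among 6412 genes. C1qa had too few values for this, and C1qc was used in its place after the values were seen. The closest to C1qc were Mrc1, the mannose receptor of tissue macrophages (distance 0.66), the Fc receptor gene Fcgr3 (0.88) and the matrix gene Lum (0.98). The closest to C5ar1 were more distant, with Rac2, a GTPase of blood cells, at 1.38, the chemokine gene Ccl8 at 1.39 and Cd68 at 1.43. For C3 they were Atp7a, a copper transporter gene (0.10), Ly6a, which encodes a stem cell and stromal surface protein (0.11), and Sppl2a, an intramembrane protease gene (0.12). For Serping1 they were Ankrd44 (0.14), the collagen gene Col6a3 (0.15) and C1qtnf1, a secreted protein with a C1q-like domain (0.16). With 4 arrays from 2 experiments, such distances describe these arrays and no more.

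The rest of the pathway was read from a list of 44 further complement genes, of which 37 were on the array and 31 could be compared for the diet. At its median, the value of C1qbp, the list was 1.12-fold higher on the high fat diet in the deposited scaling. The sign of the median turned with the scaling. It was -0.05 in log2 after setting all array medians equal (C1qbp) and -0.05 after quantile normalization (C9). Of the 31, 6 passed 2-fold upward and 5 downward. The share past 2-fold in the upper direction was 12.8% over all genes and in the lower direction 7.84%, as given above.

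Of the genes past 2-fold upward, C1ra and C1s1 encode the proteases that C1q carries. C1ra read 1084 on chow and 2841 in high fat tissue, 2.62-fold higher, and C1s1 read 1234 and 3521, 2.85-fold higher. Cfp encodes properdin, which stabilises the alternative pathway enzyme. It read 446 and 2178, 4.88-fold higher, and lay below the floor on both adipocyte arrays (11.8 and 5.14). The remaining 3 encode chains of the integrins that serve as complement receptors. Itgax read 110 and 3458 (31.5-fold higher), Itgam 62.6 and 782 (12.5-fold) and their shared partner Itgb2 705 and 6218 (8.82-fold). The chow readings of Itgax and Itgam were below that array's median intensity of 266. That of Itgam lay near the floor of 25.1, so its fold rests on a dim reading.

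Cfd, which encodes factor D, was, in the deposited scaling, the one gene of the list at least 2-fold lower that passed the level filter, meaning that its brighter array of the pair reached the median of all compared genes. It read 12082 on chow against 5663 after high fat feeding, 2.13-fold lower. In adipocytes it read 13169 with vehicle and 13530.2 with forskolin, near the highest value on those arrays (13686 and 13965). Factor D cleaves factor B, whose gene Cfb was 3.20-fold higher on the same arrays. Of the other 4 genes below, named after their values were seen, Cd46 was 2.84-fold lower, Masp1 2.42-fold, C8a 2.37-fold and Mbl2 2.17-fold. Masp1 missed 2-fold with the median over its 4 probe sets (1.98-fold lower), and Mbl2 missed it with 16 added to the values in place of the floor (1.75-fold lower). All 4 were below the level filter, with a brighter reading between 61.15 and 268.

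Regulators of the cascade differed in direction. Clu, a fluid-phase inhibitor of the terminal complex, read 2448 in chow fat and 1268 in high fat tissue, 1.93-fold lower, and all 4 of its probe sets were lower (log2 differences from -0.97 to -0.61). It passed 2-fold after quantile normalization (-1.32 in log2, 2.50-fold lower) and after centring (-1.16). Cr1l, the rodent membrane regulator also called Crry, read 1452 and 2579.8, 1.78-fold higher. Cd55, which speeds decay of the C3 convertase, read 470.0 and 395, 1.19-fold lower. Hc, the gene of C5, read 40.2 and 59.5, dim on both arrays.

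**Figure D5:**
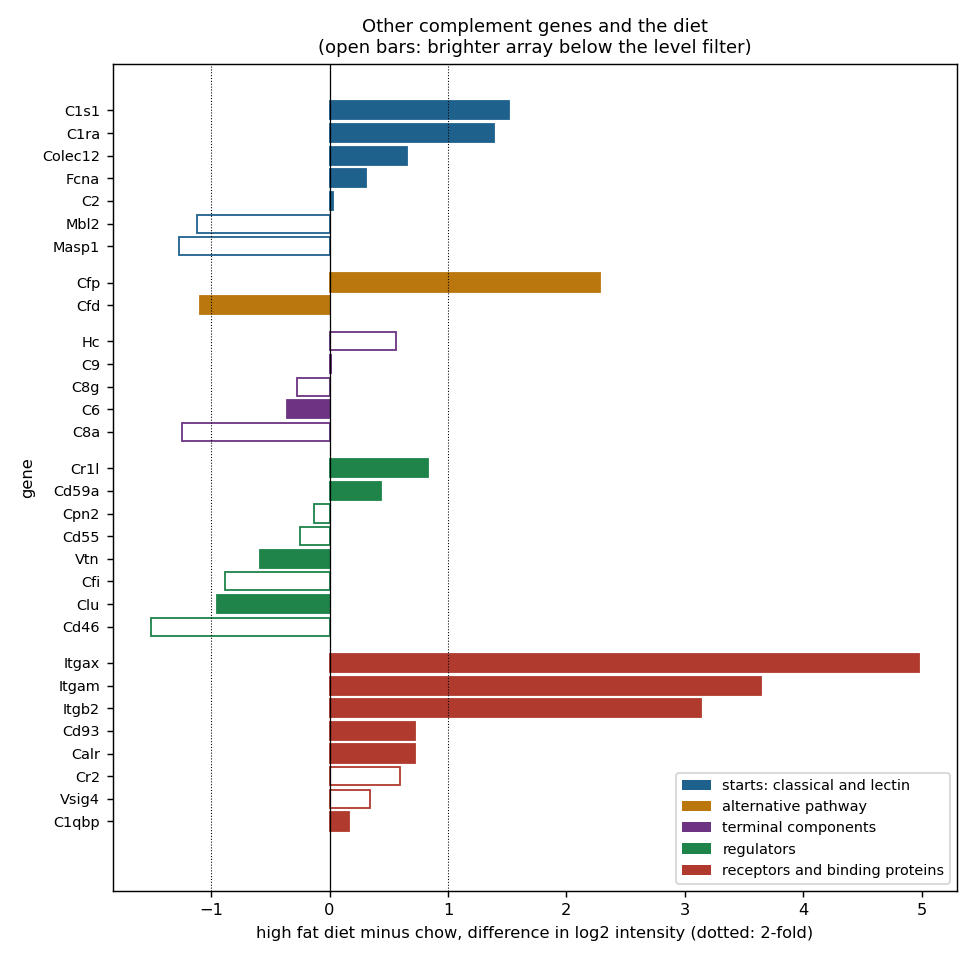
High fat diet minus chow difference in log2 intensity for compared genes of the wider complement list, grouped by role; open bars mark genes whose brighter array was below the level filter and dotted lines mark 2-fold. Itgax (4.98), Itgam (3.64) and Itgb2 (3.14) extend farthest to the right, and Cd46 (-1.51) farthest to the left.

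With forskolin, none of 33 compared genes of the wider list reached 2-fold in either direction, where the shares over all compared genes were 2.04% and 1.15%. Within 1.5-fold lay 31 of the 33, and 89.4% of all compared genes, so the list's counts were near the background. The 2 exceptions were both higher. Cd55 read 217 with vehicle and 344 with forskolin, 1.58-fold higher, and was below the level filter for this pair. Its other probe set, dimmer on average, was higher with forskolin by 1.63 in log2 intensity, which is past 2-fold. Taken as the median of both, Cd55 was 2.21-fold higher. Itgam was 1.80-fold higher at dim readings of 38.3 and 69.0. Clu was 1.04-fold lower (1882 and 1808) and Cr1l 1.01-fold higher (2652 and 2671), with the sign of Cr1l turning after quantile normalization (-0.05).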

How the data were processed

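Per the labels' protocols, Trizol was used to extract total RNA, which was column-purified, biotinylated and processed by Affymetrix standard methods. The authors deposited 1 intensity per probe set and array on a linear scale. The sources used here do not give the software, background correction, normalization or genome build. A second deposited table repeats these intensities (equal in 90504 of 90504 cells) and adds the authors' signed fold and its bounds, whose confidence level is not given.

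Empty cells were left out. Probe sets were named by gene ID with RefSeq's GRCm38.p6 gene list (20834 matched), else by symbol (42), synonym (183) or the table's own symbol (316), while 482 with several genes and 769 with no name were not used. Before log2, values under an array's 10th percentile were raised to it, and a gene at or below the floor on both arrays of a pair was not compared. Where several probe sets read a gene, the most complete and then the brightest on average stood for it. Differences were taken as forskolin minus vehicle and high fat diet minus chow. No p-value was computed, since each group held 1 array.

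The members and lists were chosen with earlier results of these data known. The named genes were all members, the wider-list genes past 2-fold at the level filter, fixed further genes of that list (Cfd, Clu, Cfp, Cr1l, Cd55 and Hc, with 1 other not reported here), and the 3 closest profiles of C1qa (C1qc), C3, C5ar1 and Serping1. Alternatives were quantile normalization, centring, 16 added to values without a floor, the median over probe sets, the authors' folds, fold thresholds of 1.5 and 3, and the level filter. The calling steps were tested on simulated arrays. Python 3.11.15, numpy 2.4.6, pandas 2.3.3 and matplotlib 3.10.9 were used.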

Additional observations from a re-analysis of the deposited data

How the results depend on the processing

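The 7 members were higher on the high fat diet in the main setting and under each of the 5 alternatives that recompute a difference, with a median between 1.45 and 1.68 on the log2 scale. The count past 2-fold was 5 throughout, and 7 at 1.5-fold and 4 at 3-fold. C3 ranged from 1.47-fold to 1.85-fold and C5ar1 from 27.3-fold to 34.8-fold. The value that moved was C3ar1, to 3.36 on the log2 scale with the median over its probe sets. With forskolin the 7 compared members stayed within 1.20-fold under those settings, while C3 turned sign after quantile normalization (-0.06) and C3ar1 with the median over probe sets (-0.0027). That last setting compared 8 members with forskolin, and adding 16 or taking the authors' folds compared 9, with 0 past 2-fold in each. A C1qb probe set that did not stand for the gene had an authors' fold of 4.94, from readings of 4.11 and 20.29 below the floor. For the wider list, 1 gene (Cd55) passed 2-fold upward with forskolin with the median over probe sets. With the authors' folds 2 were higher and 1 lower, namely C8b, Cpn1 and Cfp, whose readings were at or below the floor on both arrays, and at 1.5-fold 2 were higher. For the diet the list had 11 higher and 9 lower at 1.5-fold, 0 lower at 3-fold and 1 lower with the level filter. Against 5 lower in the main setting it had 6 after quantile normalization, 7 after centring, 6 with the authors' folds, and 4 with 16 added or with the median over probe sets. C2, C9 and C1qbp, named for this after their values were seen, turned sign after quantile normalization (-0.25, -0.05 and -0.19). No paired analysis was possible because each group held 1 array. Dim readings, with C5ar1 on chow at 56.4 against a floor of 25.1, limit the size of the highest folds.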

Other observations

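The genes in these observations were chosen after their values were seen. C2, which encodes the partner of C4 in the classical pathway, is the immediate neighbour of Cfb on chromosome 17, with 0 coding genes between them. C2 read 1067 on chow and 1087 after high fat feeding, a log2 difference of 0.03, whereas Cfb had one of 1.68 on the same arrays. C2 had an empty cell on the vehicle array and read 1474 with forskolin. C1qa, C1qc and C1qb are likewise neighbours on chromosome 4, with 0 coding genes between C1qa and C1qc and 0 between C1qc and C1qb.

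Vsig4, a complement receptor gene of resident macrophages, was 1.27-fold higher after high fat feeding (399.9 and 506), and Fcna, a ficolin gene of the lectin pathway, 1.24-fold higher (927 and 1147). The integrin genes Itgam, Itgax and Itgb2 were 8.82-fold or more higher on the same arrays. Fcna read 59.9 in vehicle adipocytes, whereas Vsig4 read 345 there, close to its chow reading. Vsig4 was also below the level filter for the diet. C6, a terminal component, read 854 and 906 in vehicle and forskolin adipocytes, and 638 and 496 in chow and high fat tissue.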
